A study of Mus musculus with 23 samples.

Results

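The genes described here encode 9 proteins of the tight and adherens junctions that join intestinal epithelial cells. They were chosen by name and found by symbol among the 55416 Ensembl gene rows of the count tables. They are 5 claudins (Cldn2, Cldn3, Cldn4, Cldn7 and Cldn15), occludin (Ocln), the scaffold ZO-1 (Tjp1), the junctional adhesion molecule JAM-A (F11r) and E-cadherin (Cdh1). All 9 of 9 passed the filter on low counts, among 13405 genes tested. Each library holds RNA scraped from the proximal part of the small intestine of 1 mouse. The mice were of the strain C57BL/6JRccHsd, aged 42 days and all labelled female. The GAL42 group (n = 12) was fed for 3 weeks from day 21 on pellets in which galactose gave 16% of the energy and glucose another 16%. The GLU42 group (n = 11) was fed over the same time on pellets in which glucose gave 32% of the energy, and the diets were otherwise the same. The comparison asks how the gut differs when galactose takes the place of part of the glucose after weaning.

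Tight junctions close the space between neighbouring epithelial cells near their apical edge. Claudins set what passes through: some form pores for small ions and water, and others tighten the seal. In the mouse intestine the pore-forming claudin-2 and claudin-15 let sodium return to the lumen, where sodium-coupled carriers use it to take up glucose and galactose. Claudin-2 is known as a claudin of crypts and early life, and claudin-15 as one of the mature small intestine. Claudin-3 is classed as sealing, and claudin-4 and claudin-7 are grouped with it here, although their role differs between tissues. Below the claudins, ZO-1 ties the membrane proteins to actin, and E-cadherin holds the adherens junction together.

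Libraries held 15382583 to 17174721 counts in genes, and no 2 libraries were copies of each other. GAL42 replicate 12, labelled female, had only 4 Xist counts (the remaining libraries had a median of 1518.5). It also had 225 counts over 4 Y-linked genes, of which no other mouse had more than 1. For the check of the tissue label, all 8 of 8 epithelial and all 8 of 8 enterocyte markers were tested. The summed enterocyte level was 58553 to 79709 CPM (counts relative to the TMM-scaled total of each library) in GAL42 and 54270 to 84791 CPM in GLU42. Goblet cell markers summed to 8500.1 to 12796 CPM in GAL42 and 9325 to 13855 CPM in GLU42. The summed smooth muscle markers lay at 44.4 to 124 CPM in GAL42 and 43.7 to 180.1 CPM in GLU42, and the endothelial ones at 32.3 to 62.7 CPM in GAL42 and 28.6 to 65.1 CPM in GLU42. Leukocyte markers summed to 91.0 to 146 CPM in GAL42 and 64.2 to 126 CPM in GLU42, with 7 of 8 positive in log2 difference and 0 called. Of 8 pancreatic acinar markers 7 stayed under the count filter. The 1 tested, Cela1, had 3.33 to 67.5 CPM in GAL42 and 3.52 to 5.93 CPM in GLU42. Of these cell types, only enterocytes and smooth muscle had scores that were set against the members. The part of the other cell types in the results was not tested. In bulk tissue, fewer cells of a type and less RNA per cell cannot be told apart.

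The junction of these scrapings was, at the RNA level, rich in claudin-7, claudin-15 and claudin-3. Levels of different genes are compared per length, as CPM per kilobase (kb) of the longest annotated transcript. Cldn7 stood first with 564 ± 57.2 CPM per kb in GAL42 and 557 ± 59.7 in GLU42 (SD, n = 12 and 11). Cldn15 followed with 516 ± 52.6 in GAL42 and 462 ± 28.6 in GLU42. Cldn7 exceeded Cldn15 in 20 of 23 libraries, and their ranges overlapped. Below them came Cldn3, at 318 ± 39.1 CPM per kb in GAL42 and 310.2 ± 35.1 in GLU42, and Cdh1, at 169 ± 18.9 in GAL42 and 176 ± 16.3 in GLU42. Cldn15, Cldn3 and Cdh1 kept that order in 23 of 23 libraries. Cldn4 (106 ± 21.2 in GAL42 and 115 ± 25.1 in GLU42) and F11r (107 ± 8.07 in GAL42 and 106 ± 7.55 in GLU42) did not differ beyond their spread, Cldn4 being the higher in 10 of 23 libraries. Ocln had 30.3 ± 2.71 in GAL42 and 34.2 ± 4.61 in GLU42. The lowest were Cldn2, at 14.9 ± 3.52 in GAL42 and 14.2 ± 5.27 in GLU42, and Tjp1, at 12.3 ± 1.86 in GAL42 and 14.4 ± 2.39 in GLU42, which overlapped, with Cldn2 ahead in 12 of 23 libraries. The expressed isoform is unknown. With the median length of a gene's annotated transcripts instead, F11r moved to position 3 and Tjp1 to position 6, Ocln became the lowest, at position 9, while Cldn7 and Cldn15 stayed first and second. The mean level over all mice was then 134 for Tjp1, 58.6 for Cldn2 and 53.4 for Ocln, in CPM per kb of that length.

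**Figure D1:**
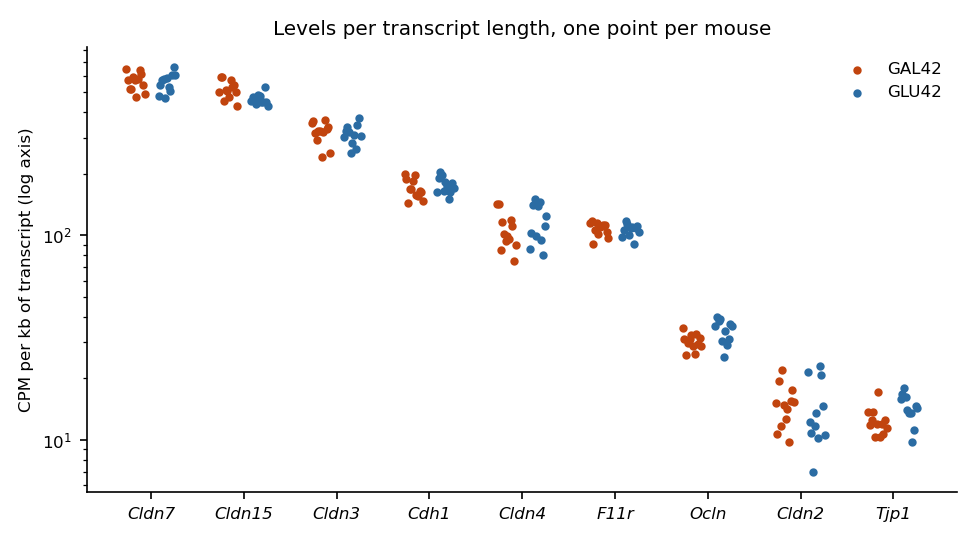
Level of each junction gene per transcript length (CPM per kb of the longest transcript, log axis), with 1 point per mouse, GAL42 left of GLU42. Cldn7 and Cldn15 lie at the top, Cldn4 and F11r share a level, and Cldn2 and Tjp1 lie lowest.

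Of the claudin family, 26 genes were matched and 7 were tested: the 5 above, Cldn23 and Cldn12. The other 19 stayed under the count filter, 5 of them with 0 counts in all libraries, and the highest mean among the 19 was 0.366 CPM. Of the summed per-kb level of the 7, Cldn7 made up 36.5 ± 1.71% in GAL42 and 37.4 ± 1.85% in GLU42. Cldn15 made up 33.4 ± 2.24% in GAL42 and 31.2 ± 2.59% in GLU42. Cldn3 made up 20.5 ± 1.07% in GAL42 and 20.8 ± 1.37% in GLU42, and Cldn2 made up 0.971 ± 0.242% in GAL42 and 0.963 ± 0.388% in GLU42 (SD). Of the pore-forming pair, Cldn15 was thus far the more abundant by the longest transcript. With the median transcript length the mean levels over all mice were 504 for Cldn15 and 58.6 for Cldn2, in CPM per kb. The exons of Cldn3 overlap those of Wbscr25 on the opposite strand, which held 167 counts over all libraries. The strand setting of the counting is not given in the sources used here.

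Promoters are shown for the claudins whose RNA moved together from mouse to mouse (Cldn3 and Cldn7) and for those that moved in opposite directions (Cldn2 and Cldn4), as described further on. They are RefSeq windows on the build GRCm38.p6, an older build than that of the counts, from 250 bases before the start to 50 after it, written along the gene. Capitals mark matches, on either strand, to the letters of 8 motifs. These are the TATA box, spelled TATAAA, the GC box, spelled GGGCGG, the element of the factor AP-1, spelled TGANTCA, and that of the Wnt factors TCF/LEF, spelled CTTTGA. The others are the core element of nuclear receptors, spelled AGGTCA, that of the intestinal factor CDX, spelled TTTATG, that of Grainyhead factors, spelled AACNGGTT, and the E-box bound by Snail factors, spelled CAGGTG. No matches overlap in these windows. Cldn7 has a second annotated start, whose window is not printed. The windows lie at chrX:139800558-139800857 (plus strand) for Cldn2, chr5:134946885-134947184 (minus strand) for Cldn4, chr5:134985964-134986263 (plus strand) for Cldn3 and chr11:69964529-69964828 (plus strand) for Cldn7.
Cldn2: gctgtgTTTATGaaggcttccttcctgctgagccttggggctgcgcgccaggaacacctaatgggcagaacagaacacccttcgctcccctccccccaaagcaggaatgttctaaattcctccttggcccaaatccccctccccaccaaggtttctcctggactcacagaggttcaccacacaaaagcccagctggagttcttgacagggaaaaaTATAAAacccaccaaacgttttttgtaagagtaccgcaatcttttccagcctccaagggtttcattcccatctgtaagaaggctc
Cldn4: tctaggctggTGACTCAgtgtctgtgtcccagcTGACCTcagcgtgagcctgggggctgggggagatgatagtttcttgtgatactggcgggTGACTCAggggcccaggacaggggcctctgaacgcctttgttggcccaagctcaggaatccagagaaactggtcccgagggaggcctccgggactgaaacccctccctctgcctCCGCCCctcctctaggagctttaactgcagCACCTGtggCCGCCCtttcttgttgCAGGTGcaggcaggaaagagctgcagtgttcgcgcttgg
Cldn3: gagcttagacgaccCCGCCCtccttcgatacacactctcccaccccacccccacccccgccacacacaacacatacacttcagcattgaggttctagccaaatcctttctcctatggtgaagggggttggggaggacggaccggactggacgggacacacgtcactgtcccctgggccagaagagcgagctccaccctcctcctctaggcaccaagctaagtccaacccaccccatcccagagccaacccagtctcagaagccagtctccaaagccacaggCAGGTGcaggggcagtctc
Cldn7: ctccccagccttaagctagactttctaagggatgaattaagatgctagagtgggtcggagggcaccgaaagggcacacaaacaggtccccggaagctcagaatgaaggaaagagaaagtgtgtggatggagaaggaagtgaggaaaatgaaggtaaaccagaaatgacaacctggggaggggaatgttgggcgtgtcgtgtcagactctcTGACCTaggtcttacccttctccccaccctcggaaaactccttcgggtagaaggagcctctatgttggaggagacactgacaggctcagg

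The Cldn2 window held the TATA letters 35 bases before the start and the CDX letters 244 before it, which 13.6% and 11.9% of all 32851 promoter windows of 300 bases also hold. The Cldn4 window held neither, but had 2 AP-1 matches (7.81% of windows hold at least 1), 2 GC boxes (35.7%), 2 E-boxes (20.2%) and a nuclear receptor element (16.3%). Cldn3 had a GC box and an E-box, and the first Cldn7 window, the one printed, had a nuclear receptor element alone. The window at the second Cldn7 start held a GC box, E-boxes and a nuclear receptor element. The GC box and E-box letters are in the Cldn3 window too, and the nuclear receptor letters are not. TCF/LEF letters (16.0% of windows) and Grainyhead letters (2.09%) were in none of the 4 printed windows. A match is a description of the sequence, not a bound site.

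None of the 9 genes passed the test between the diets by edgeR's quasi-likelihood fit, which called 0% of all 13405 genes. At an unadjusted p under 0.05 there were 3 members, Cldn15 higher and Ocln and Tjp1 lower on galactose. That p was reached by 14.4% of all tested genes, 8.63% higher and 5.72% lower. DESeq2 and limma-voom with sample quality weights called 0 of the 9 genes (1.84% and 1.25% of all genes with an adjusted p), and so did limma-voom (0%). Without GAL42 replicate 7 edgeR called 1.64% of all genes and 0 of the 9. Without GAL42 replicate 12 it called 0 of the 9 too, and the log2 differences of Cldn15, Ocln and Tjp1 were 0.18, -0.17 and -0.21.

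Cldn15, the main pore-forming claudin of the mature small intestine, had the smallest p among the members. It ranged over 809.9, 967 and 1129 CPM in GAL42 (lowest, median, highest) and 809.2, 863 and 1009 CPM in GLU42. In 10 of 12 GAL42 mice it lay above the GLU42 median, and 4 exceeded every GLU42 mouse, though the groups overlap. The fold was 1.12 (95% interval 1.03 to 1.21), a log2 difference of 0.16 ± 0.06 (SE, adjusted p = 0.210 by edgeR). Its lowest adjusted p under any alternative was 0.0885, by limma-voom with quality weights.

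Cldn2 is the other pore former, and the most variable member. It had 29.6, 45.7 and 66.6 CPM in GAL42 and 21.2, 37.4 and 70.2 CPM in GLU42 (lowest, median, highest). Both the lowest and the highest mouse ate the glucose diet, GLU42 replicates 4 and 8. The coefficient of variation was 23.7% in GAL42 and 37.2% in GLU42, and its fitted biological variation (27.4%) exceeded that of 96.4% of tested genes of at least 10 CPM. The log2 difference was 0.07 ± 0.17 (SE, adjusted p = 0.884 by edgeR), so the interval allows folds of 0.829 to 1.32.

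Among the sealing claudins, Cldn3 had 305.1, 406 and 461 CPM in GAL42 and 317, 388 and 470.4 CPM in GLU42 (lowest, median, highest). Cldn7, which binds the epithelial adhesion molecule EpCAM, had 634, 765 and 867 CPM in GAL42 and 625, 761 and 883 CPM in GLU42. For both the ranges of the groups nearly coincide. Their log2 differences were 0.03 ± 0.07 and 0.02 ± 0.07 (SE), with folds of 0.924 to 1.14 and 0.922 to 1.11 inside the 95% intervals. Cldn4 spread more widely, with 136, 181 and 259 CPM in GAL42 and 145, 202 and 272 CPM in GLU42. Its 2 highest GAL42 mice, replicates 1 and 2, stood apart from the others of that diet at 258 and 259 CPM. The log2 difference was -0.13 ± 0.12 (SE, adjusted p = 0.632 by edgeR), and 8 of 12 GAL42 mice lay below the GLU42 median.

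Occludin and ZO-1 were the members with the lowest values on galactose relative to glucose. Ocln, a membrane protein of the tight junction strand, had 105.0, 123 and 142 CPM in GAL42 and 103, 146 and 162 CPM in GLU42 (lowest, median, highest). All 12 of 12 GAL42 mice lay below the GLU42 median, and 6 GLU42 mice exceeded every GAL42 mouse, while the lowest mouse of all was also a GLU42 one. The fold was 0.885 (0.802 to 0.975), a log2 difference of -0.18 ± 0.07 (SE, adjusted p = 0.240 by edgeR). Tjp1 had 72.9, 84.3 and 121 CPM in GAL42 and 68.8, 101 and 126 CPM in GLU42, and 11 of 12 GAL42 mice lay below the GLU42 median. The exception was GAL42 replicate 7, at 121 CPM. The fold of Tjp1 was 0.859 (0.757 to 0.976), a log2 difference of -0.22 ± 0.09 (SE, adjusted p = 0.260 by edgeR). Under any alternative the lowest adjusted p of Ocln was 0.0686, by edgeR with a crypt marker score, described further on, as covariate. That of Tjp1 was 0.0799, by edgeR without GAL42 replicate 7. Both are below the lowest of Cldn15.

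F11r encodes a cell adhesion receptor that recruits polarity proteins, and its fitted variation was the lowest of the members. It had 229, 278 and 296 CPM in GAL42 and 228, 272 and 295 CPM in GLU42, with a fitted biological variation (9.33%) larger than that of 10.8% of genes of at least 10 CPM. Its log2 difference was 0.02 ± 0.05 (SE), and the 95% interval spans folds of 0.943 to 1.09. Cdh1, the cadherin of the adherens junction, had 633, 735 and 881 CPM in GAL42 and 668, 775 and 901 CPM in GLU42. The log2 difference was -0.06 ± 0.06 (SE), with folds of 0.878 to 1.05 inside the interval.

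**Figure D2:**
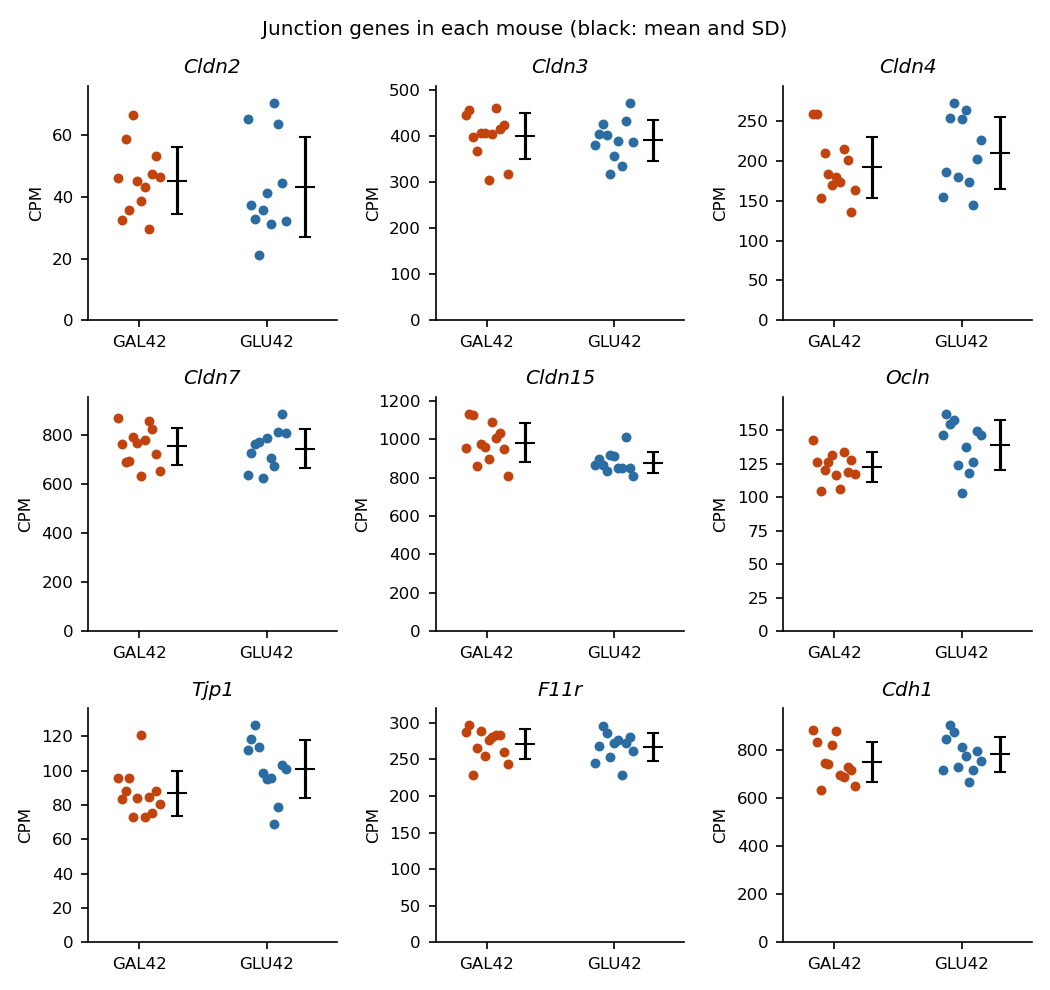
CPM of each junction gene in every mouse, GAL42 (12 points) left of GLU42 (11 points), each axis starting at 0; the black mark is the mean with its SD. The diets overlap for all 9 genes, with Cldn15 shifted up and Ocln and Tjp1 shifted down in GAL42 by less than the width of the groups.

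The pore-forming claudins were set against the sealing ones in each mouse, as the mean log2 CPM of Cldn2 and Cldn15 minus that of Cldn3, Cldn4 and Cldn7. This ratio was -0.88 ± 0.27 in GAL42 and -1.04 ± 0.41 in GLU42 (SD), a difference of 0.16 that is smaller than the spread within either diet. It lay above the GLU42 median in 8 of 12 GAL42 mice. The 6 single ratios all had means higher in GAL42. Cldn15 over Cldn4 gave 2.37 ± 0.30 in GAL42 and 2.09 ± 0.37 in GLU42 on the log2 scale. Cldn15 over Cldn7 gave 0.38 ± 0.16 in GAL42 and 0.24 ± 0.18 in GLU42, and Cldn15 over Cldn3 gave 1.30 ± 0.14 in GAL42 and 1.17 ± 0.19 in GLU42. The ratios of Cldn2 were less steady, for example -2.09 ± 0.55 in GAL42 and -2.33 ± 0.81 in GLU42 over Cldn4. The 6 ratios share genes and are not separate observations. With the length slope of each library, defined in the text on transcript length, taken off, the difference of the combined ratio was 0.01.

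Transcript length moved with the diet difference in these libraries. When the tested genes were ranked by transcript length and cut into 10 classes, the median log2 difference was 0.12 in the shortest class and -0.11 in the longest. The members span much of this range, 1259 bases for Cldn3, 1335 for Cldn7, 1816 for Cldn4, 1902 for Cldn15, 2518 for F11r, 3044 for Cldn2, 4052 for Ocln, 4430 for Cdh1 and 7049 for Tjp1. Genes of a length like that of Tjp1 had a median of -0.11, and 16.1% of them lay below Tjp1. Genes as long as Ocln had a median of -0.02, with 10.5% below Ocln. Genes as long as Cldn15 had a median of 0.04, and 82.7% lay below Cldn15. Cldn4, of nearly the same length as Cldn15, lay on the other side, with 13.6% of such genes below it.

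A length slope was computed for each mouse, as the change of its log2 CPM (after the all-library mean of each gene was taken off) per doubling of transcript length. It averaged -0.0289 ± 0.0553 in GAL42 and 0.0315 ± 0.0450 in GLU42 (SD). With it as a covariate the log2 difference of Tjp1 was 0.00 ± 0.07 (SE), that of Ocln -0.09 ± 0.08 and that of Cldn15 0.08 ± 0.06, each with a 95% interval that spans 0. Cldn2 turned to -0.17 ± 0.17, and Cdh1, Cldn3 and Cldn7 also changed sign around 0. Across mice with the diet means taken off, Tjp1 followed the slope (Pearson's r = 0.795, Spearman's rho = 0.739, adjusted p = 0.00108 and 0.00180 by permutation test over 36 relations, n = 23). Without the 2 libraries farthest from the median slope r was 0.758 for Tjp1. The slope was computed over the tested genes, Tjp1 among them, so a long gene tends to follow it by construction. The p is therefore not evidence of something particular to Tjp1. How many genes of like length reached such an r was not computed. Cdh1 (r = 0.523) and Cldn2 (r = -0.483) also passed by r (adjusted p = 0.0455 and 0.0483 by permutation test). By rho these 2 genes did not pass (adjusted p = 0.0677 and 0.118 by permutation test). GAL42 replicate 7, the mouse of highest Tjp1 on galactose, had a slope of 0.0795, the highest of its group. The slope differs between the diets, so the parts of slope and diet in the values of these genes cannot be told apart.

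**Figure D3:**
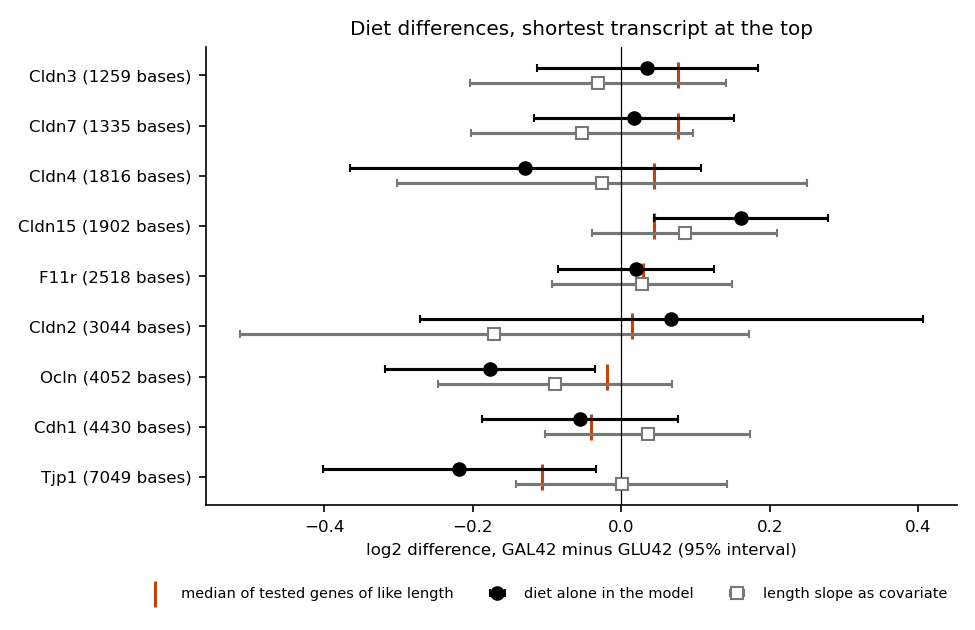
Log2 difference, GAL42 minus GLU42, of each gene with its 95% interval, from the model with diet alone (black) and with the length slope as covariate (grey), the shortest transcript at the top. The red mark is the median of all tested genes in the same length class, which falls from 0.08 at Cldn3 to -0.11 at Tjp1, and every grey interval spans 0.

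Beyond the 9 members, 0 junction genes passed the test. Of 107 further junction genes matched, in lists of claudins, other tight junction membrane proteins, plaque and polarity proteins, adherens junctions, desmosomes and regulators, 81 were tested and 0 were called in either direction, with 2 higher (2.47%) and 11 lower (13.6%) at an unadjusted p under 0.05. The shares over all tested genes were 8.63% higher and 5.72% lower. Among genes longer than the overall median, 17.3% of the junction genes were lower and 0% higher, against 8.95% and 3.74% of all. At or below that median, 6.90% of the junction genes were lower and 6.90% higher, against 2.51% and 13.5% of all. The junction genes' median log2 difference was -0.07, against -0.00174 for all tested genes, and 58 of 81 were negative (71.6%, against 50.5% of all tested genes). They are long genes, with a median of 4083 bases against 3228. Of the 52 longer than that overall median 86.5% were negative, as were 65.9% of all such genes, and of the 29 shorter ones 44.8%, against 35.2% of all. With the length slope as covariate the median of the junction genes was 0.00462, against 0.00424 for all tested genes, and 36 of 81 were negative. The share of all tested genes that were negative under the length slope was not computed, here or for the lists below.

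In the membrane list, 6 of 9 tested genes were positive, with a median of 0.02. Jam2, a junctional adhesion molecule of endothelium and other cells, averaged 2.72 CPM in GAL42 and 4.02 CPM in GLU42, a log2 difference of -0.56 ± 0.21 (SE, unadjusted p = 0.0132, adjusted p = 0.231 by edgeR). Igsf5 (JAM4) stood at 0.15 ± 0.06, the coxsackie and adenovirus receptor Cxadr at -0.09 ± 0.06 and the polarity protein Crb3 at 0.09 ± 0.06. Under the length slope Jam2 stood at -0.43, Igsf5 at 0.09, Cxadr at 0.00314 and Crb3 at 0.04. The remaining claudins Cldn23 and Cldn12 stood at -0.08 ± 0.07 and -0.07 ± 0.07, and at -0.10 and -0.00131 with the length slope. In the plaque and polarity list 17 of 21 genes were negative (median -0.10), against 7 of 21 with the length slope (median 0.03). The scaffolds Magi3 and Magi1 had -0.20 ± 0.08 and -0.12 ± 0.07, angiomotin (Amot) -0.19 ± 0.09 and Pard6g -0.51 ± 0.25, the last at 0.916 CPM in GAL42 and 1.31 CPM in GLU42. With the length slope Magi3 stood at -0.02, Magi1 at 0.00424, Amot at -0.09 and Pard6g at -0.20.

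In the adherens junction list 12 of 14 genes were negative (median -0.07), against 6 of 14 with the length slope (median 0.00671). The lowest p belonged to Ctnnd1, the p120 catenin that keeps E-cadherin at the membrane, with 64.6 ± 16.7 CPM in GAL42 and 81.0 ± 10.7 CPM in GLU42 and 11 of 12 GAL42 mice below the GLU42 median. Its log2 difference was -0.33 ± 0.12 (SE, unadjusted p = 0.0109, adjusted p = 0.217 by edgeR), and -0.45 with the length slope. Vinculin (Vcl) had -0.15 ± 0.06, and the adhesion molecules Nectin1 and Nectin2 had -0.14 ± 0.06 and 0.12 ± 0.05. Vcl, Nectin1 and Nectin2 had -0.09, -0.16 and 0.08 with the length slope. In the desmosome list 7 of 9 were negative (median -0.12), against 4 of 9 with the length slope (median 0.00578). Envoplakin (Evpl) stood at -0.32 ± 0.13, desmoplakin (Dsp) at -0.27 ± 0.11, Dsg2 at -0.16 ± 0.09 and Dsc2 at -0.14 ± 0.08. With the length slope Dsp, whose longest transcript has 9592 bases, stood at -0.01, Dsg2 at 0.04 and Dsc2 at 0.01, while Evpl kept -0.26. Among regulators 17 of 26 were negative (median -0.04), against 15 of 26 with the length slope (median -0.00816). Hnf4a, a transcription factor of enterocytes, had -0.14 ± 0.06, the E-cadherin repressor Snai1 -0.48 ± 0.23 at 0.917 CPM in GAL42 and 1.28 CPM in GLU42, Rock2 -0.15 ± 0.08 and the protease Prss8 0.19 ± 0.12. Under the length slope Hnf4a stood at -0.06, Snai1 at -0.32, Rock2 at 0.02 and Prss8 at 0.00926.

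From mouse to mouse, some members moved together and others moved apart. The diet means were taken off the log2 CPM, and the 36 pairs of members were correlated over the 23 mice. By Pearson's r 12 pairs passed (permutation test within diets, Benjamini-Hochberg over the 36), 9 positive and 3 negative, and 10 passed by Spearman's rho as well. All 3 negative pairs held Cldn2, with Cldn4, F11r and Cdh1, and the pairs with F11r and Cdh1 were the ones that rho did not pass. Cldn15 was in none of the 12. Pairs share a library's scaling, and with libraries scaled by their total alone only 3 pairs passed, Cldn3 with Cldn7, Cldn2 with Cldn4 and Tjp1 with Cdh1. Without GAL42 replicate 12 the count was 7, these 3 among them. With the length slope taken off 12 pairs passed, Cldn3 with Cldn7 and Cldn2 with Cldn4 among them but not Tjp1 with Cdh1.

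Cldn3 and Cldn7, both grouped as sealing, had the highest Pearson's r of the 36 pairs. Their r was 0.799 and their rho 0.722 (adjusted p = 0.000720 and 0.00420 by permutation test, n = 23), with r of 0.845 within GAL42 and 0.751 within GLU42. Without the 2 libraries farthest from the Cldn3 median r was 0.734. The pair lies on different chromosomes, 5 and 11, while Cldn4, which lies near Cldn3 on chromosome 5, had an r of 0.253 with it (adjusted p = 0.338 by permutation test). Cldn2 and Cldn4 moved in opposite directions, with r = -0.712 and rho = -0.730 (adjusted p = 0.00306 and 0.00342 by permutation test), r of -0.558 within GAL42 and -0.823 within GLU42, and -0.678 without the 2 libraries farthest from the Cldn2 median. GLU42 replicate 4 shows the opposition, with the lowest Cldn2 (21.2 CPM) and the highest Cldn4 (272 CPM) of all mice. The promoter windows of Cldn2 and Cldn4, printed above, shared none of the motifs searched. Neither did the printed windows of Cldn3 and Cldn7, which moved together. The Cldn7 window not printed shared the GC box and E-box with Cldn3. Whether these motifs have a part in how the pairs moved was not tested. F11r and Cdh1 moved together (r = 0.686, adjusted p = 0.00552 by permutation test), and both did so with Cldn4 (r = 0.658 and 0.610, adjusted p = 0.00612 and 0.0125 by permutation test). By Spearman's rho Cldn4 with F11r was the highest pair, at 0.766 (adjusted p = 0.00180 by permutation test).

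**Figure D4:**
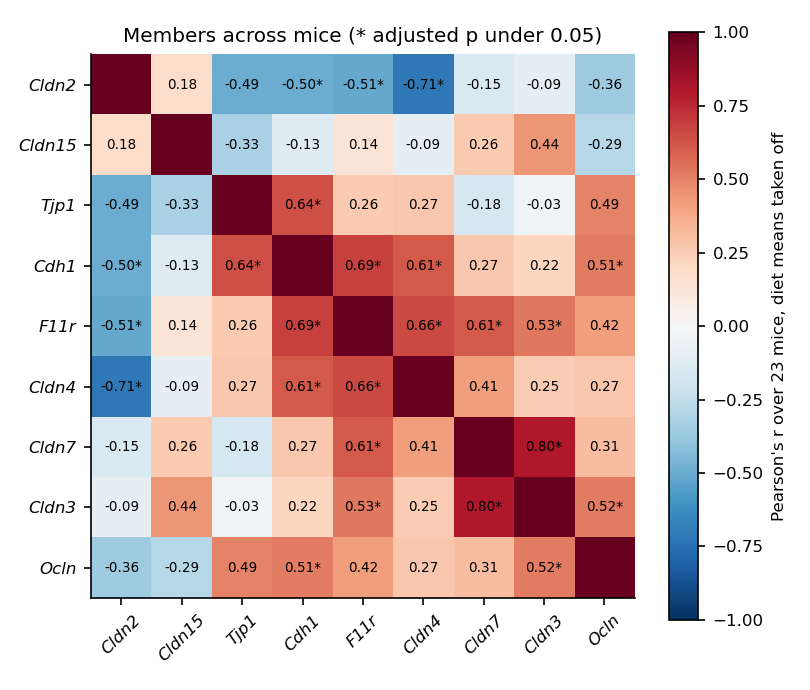
Pearson's r between the junction genes over 23 mice, with diet means taken off; red is positive, blue negative, and * marks an adjusted p under 0.05 by permutation test. Cldn2 is blue with Cldn4 (-0.71), Cdh1 and F11r, and Cldn3 with Cldn7 (0.80) is the deepest red outside the diagonal.

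The opposed claudins also moved with crypt and enterocyte markers. A score for 9 crypt base and transit markers (mean log2 CPM, 9 of 9 tested, such as Lgr5, Olfm4 and Mki67) was 4.13 ± 0.45 in GAL42 and 4.35 ± 0.42 in GLU42. The summed level of these markers was 168 to 389 CPM in GAL42 and 208 to 455 CPM in GLU42, and none was at 0. Of the 9 crypt markers 8 were negative in log2 difference, 2 of them at an unadjusted p under 0.05 by edgeR, and 0 were called. A score of 6 villus tip markers was 5.89 ± 0.34 in GAL42 and 6.28 ± 0.51 in GLU42 (SD), with 6 of 6 genes negative in log2 difference and 0 called. Whether the members moved with the villus tip score was not computed. With the crypt score Cldn2 had r = 0.660 and rho = 0.697 (adjusted p = 0.00693 and 0.00684 by permutation test over 36 relations, n = 23) and Cldn4 r = -0.718 and rho = -0.690 (adjusted p = 0.00486 and 0.00684). Without the 2 libraries farthest from the median score r was 0.637 for Cldn2 and -0.633 for Cldn4. The enterocyte score went the other way, with r = -0.689 for Cldn2 and 0.628 for Cldn4 (adjusted p = 0.00693 and 0.0136 by permutation test; r = -0.490 and 0.577 without 2 libraries). F11r and Cdh1 were also negative with the crypt score (r = -0.624 and -0.579, adjusted p = 0.0137 and 0.0215 by permutation test). By rho F11r passed (-0.580, adjusted p = 0.0296 by permutation test) and Cdh1 did not (-0.518, adjusted p = 0.0516). With the crypt score taken off, a check chosen after these values were seen, r was -0.456 for Cldn2 with Cldn4, and 1 of the 36 pairs passed, Cldn3 with Cldn7 at 0.788. With the crypt score as a covariate of the diet comparison Tjp1 stood at -0.26, Cldn2 at 0.25, Cldn4 at -0.24, Ocln at -0.22 and Cldn15 at 0.15 (log2 differences). The adjusted p was 0.0926 for Tjp1 and 0.0686 for Ocln by edgeR, with 0 of 9 called and 1.13% of all genes called. Of the 36 relations of members with the length slope and the crypt, enterocyte and smooth muscle scores, 12 passed by r. Among them Cldn3 was negative with the smooth muscle score (r = -0.521, rho = -0.572, adjusted p = 0.0455 and 0.0297 by permutation test). Between the diets 8 of 8 smooth muscle markers and 3 of 8 enterocyte markers were negative in log2 difference, with 0 called. The part of these cell markers in the levels of the claudins was not tested further.

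**Figure D5:**
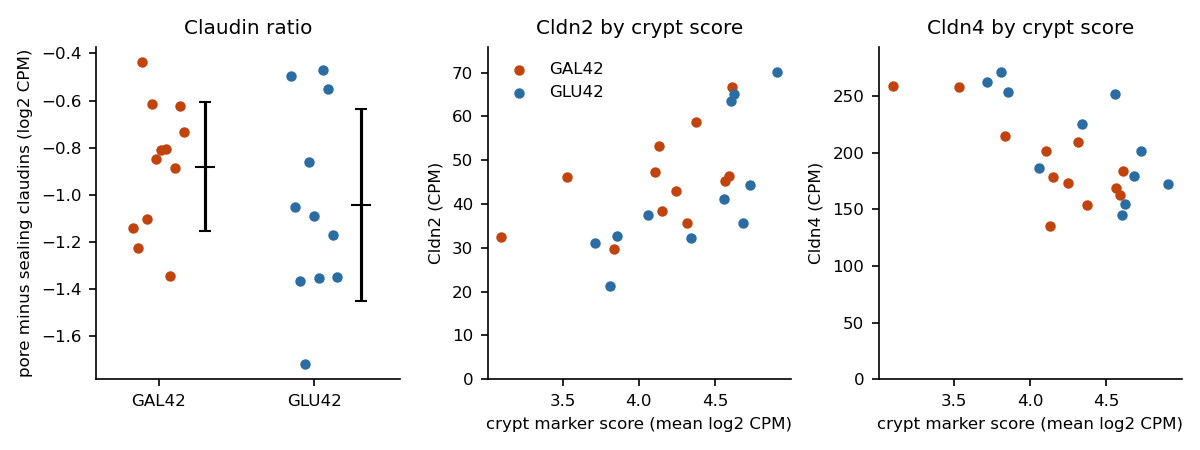
Left, pore-forming minus sealing claudins in each mouse (log2 CPM), GAL42 left of GLU42, with mean and SD; middle and right, Cldn2 and Cldn4 (CPM) against the crypt marker score (mean log2 CPM). Across both diets Cldn2 is higher and Cldn4 lower in mice of high crypt score.

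For each member the 3 genes of at least 1 CPM with the highest r over the 23 mice, diet means taken off, were found among 12445. The values of r are the highest of many and carry no p. Cldn2 was nearest to Dmbt1, a secreted glycoprotein of mucosa (r = 0.911), Wdr77 (0.850) and Far2 (0.844). Cldn4 was nearest to the small GTPase Rhod (0.910), Map7d1 (0.851) and Ubap1 (0.844). Cldn7 was nearest to Spint2, the inhibitor of the protease matriptase (0.887), then Yipf3 (0.843) and Grtp1 (0.820), and Cldn3 to Clptm1 (0.866), Nipsnap3b (0.850) and Cldn23 (0.840). Cdh1 was nearest to the desmosomal cadherins Dsg2 (0.894) and Dsc2 (0.873) and to Sh3glb1 (0.866). F11r had Tmem102 (0.863), Lpar3 (0.859) and the desmosomal protein Perp (0.808). Tjp1 was nearest to Mon2 (0.927), Cnot1 (0.917) and Erbin (0.913), all of long transcripts (9301, 8390 and 6369 bases), and Ocln to C1galt1 (0.842), Chmp2b (0.826) and Slc30a4 (0.813). Cldn15 was nearest to 3 genes of short transcripts, Txndc12 (0.813), Hagh (0.809) and Tmem120a (0.796), of 1359, 1191 and 1559 bases. The first gene named for each other member had 6272 bases for Cldn2, 4819 for Cldn3, 1495 for Cldn4 and 3252 for Cldn7. It had 6092 bases for Ocln, 1933 for F11r and 5766 for Cdh1. Of the 3 near Cldn15, Hagh and Tmem120a had log2 differences of 0.22 and 0.19 between the diets (unadjusted p = 0.00159 and 0.00911 by edgeR), and neither was called. Among the genes near the other members Slc30a4 had the smallest p (log2 difference -0.16, unadjusted p = 0.0417 by edgeR), and it was not called.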

How the data were processed

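RNA-seq libraries of 23 mice, 12 GAL42 and 11 GLU42, were compared, grouped by the diet label. Replicates are numbered in accession order, and numbers pair no animals. The authors deposited raw read counts per Ensembl gene, made with STAR and HTSeq on GRCm39 per the submitters' processing notes. For versions, annotation release and strand setting the sources used here say nothing. The 5 rows that name no gene held 13.5% of reads and were left out. Symbols were found for 94.1% of gene rows, and transcript lengths were taken by identifier from GENCODE M21, of the older build GRCm38, whose coordinates served only to find overlapping genes. All 253 pairs of libraries were compared by chi-square over genes averaging 10 counts or more (11.4 to 62.7 per degree of freedom).

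The diet test was edgeR 4.0.16, run in R 4.3.3 (filterByExpr, TMM, quasi-likelihood F test, diet as the only term), with Benjamini-Hochberg over all 13405 genes and a threshold of 0.05. The standard error is the log2 difference divided by the square root of F. Scores and correlations use log2 CPM with a prior count of 2, and permutation tests drew 100000 resamples, two-sided. Alternatives were other scalings and filters, DESeq2 1.42.0, limma-voom (limma 3.58.1), a robust fit, covariates (length slope, crypt and smooth muscle scores, 6 surrogate variables from sva 3.50.0) and leaving out each library. DESeq2 gives an adjusted p for 7168 genes only. The named genes are the members, all tested claudins, the 4 genes of smallest p and at least 1 CPM of each junction list, and the 3 genes most like each member. Members, lists and tests were chosen with earlier results of these data known.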

Additional observations from a re-analysis of the deposited data

How the results depend on the processing

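No paired analysis was possible because the labels give no number that mice of the 2 diets share. By edgeR 0 genes were called, and the alternatives gave 132 (DESeq2), 167 (limma-voom with sample quality weights), 152 (crypt score as covariate), 4 (surrogate variables) and 2 (smooth muscle score). Leaving out 1 library gave 0 to 219 genes, the 219 without GAL42 replicate 7. Of the 9 members 0 were called under each of these. Correlated pairs of members numbered 12, against 3 with libraries scaled by their total, 1 with the crypt score taken off, and 7 to 12 when GAL42 replicate 7 or 12 was left out. Cldn15, Cldn4 and Ocln kept their direction under all alternatives, with log2 differences of 0.05 to 0.18, -0.24 to -0.03 and -0.22 to -0.09. Others changed sign. With the length slope Cldn2 stood at -0.17, Cldn3 at -0.0316, Cldn7 at -0.0529, Tjp1 at 0.000242 and Cdh1 at 0.0352. The crypt score gave Cldn3 -0.00615, Cldn7 -0.00360 and F11r -0.0142, and the smooth muscle score Cldn3 -0.0122 and Cldn7 -0.0124. Surrogate variables gave Cldn2 -0.0364, Cldn3 -0.107, Cldn7 -0.0738, F11r -0.00136 and Cdh1 0.000128. Leaving out 1 library gave ranges of -0.00393 to 0.157 for Cldn2, -0.00849 to 0.0443 for Cldn7 and -0.00551 to 0.0357 for F11r. The cause of these changes was not tested. The difference in the claudin ratio was 0.0946 (without GLU42 replicate 4) to 0.220 without 1 library and 0.01 with the length slope taken off. Each member had at least 326 counts in every library.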
